A study of Homo sapiens with 6 samples.

Results

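The ends of chromosomes were examined in Hi-C maps of 4 cancer cell lines, as the outermost 2 Mb of each arm of chromosomes 1 to 22. Hi-C joins pieces of crosslinked DNA that lie close together in the nucleus and counts the joined pairs by sequencing. An end was counted from the first or the last 40-kb bin of a chromosome with any read pair in the maps of all 4 lines, which gave 44 ends of 50 bins each, or 2200 of the 72036 bins of these chromosomes. SW480 and SNU-C1 are colon cancer lines, HCC1954 is a breast cancer line and OE33 is an oesophageal adenocarcinoma line, all untreated and digested with MboI in the in situ protocol. The first ends of chromosomes 13, 14, 15, 21 and 22 are called starts here (13 start, for example), because their short arms are not in the genome assembly and these 5 ends lie beside the centromere, 11.04 to 20.56 Mb into the assembled chromosome. The other 39 ends are called by chromosome and arm (20q). They begin a median of 0.12 Mb from the end of the assembled chromosome, but 7p begins at 2.32 Mb, 1p at 0.92 Mb and 8p at 0.64 Mb, since the outer bins there had no read pair in at least 1 line. Windows 10 to 12 Mb from the same 44 ends, 2200 bins as well, served as the reference.

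A chromosome arm finishes in a telomere, a tandem repeat that is bound by protective proteins and copied by telomerase. The DNA just inside it, the subtelomere, holds segments duplicated between chromosomes and then, on many arms, dense genes and a high GC content. Ends of different chromosomes can touch in the nucleus, at its periphery, around nucleoli or through shared compartments, and a break near an end can join it to another chromosome.

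The outermost 90 bases of the analysed stretch of a pair of ends that recur in the results below (GRCh37, plus strand) are shown to place where this stretch stops, all in lower case since no part of them is singled out. The end of 20q had the highest contact with other ends in SNU-C1, and that of 5q met the end of 5p with the highest O/E between both ends of 1 chromosome in HCC1954, values given below.

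20q, chr20:62919911-62920000: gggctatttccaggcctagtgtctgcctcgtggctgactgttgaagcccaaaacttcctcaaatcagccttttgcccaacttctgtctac

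5q, chr5:180719911-180720000: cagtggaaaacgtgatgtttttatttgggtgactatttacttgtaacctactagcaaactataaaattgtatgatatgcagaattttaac

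Each belongs to the outermost 40-kb bin of its end, and the assembly goes on for 0.106 Mb beyond it on 20q and 0.195 Mb on 5q, which no value below covers. The ends were richer in GC, with a median of 47.9% per bin against 42.3% at 10 to 12 Mb, and held 16.4 starts of protein-coding genes per Mb against 8.62 at 10 to 12 Mb. The MboI site GATC was about as frequent, at 2.43 and 2.55 per kb.

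The depth within chromosomes was 133386311 read pairs (SW480), 115014329 (SNU-C1), 93501178 (HCC1954) and 89418425 (OE33). Pairs between chromosomes made up 14.8% (SNU-C1), 19.6% (HCC1954) and 36.6% (OE33) of all pairs but 0.263% in SW480, which was therefore left out of the contacts between chromosomes. For SNU-C1, HCC1954 and OE33, 1 map each was used. The study analysed its Hi-C in duplicate, and replicate maps of these lines were not analysed here. For SW480, 3 maps were present, of replicates 1 and 2 and 1 without a number that equalled their sum within 1% at 99.9% of 200200 pairs of 1-Mb tiles. That pooled map is the SW480 value below, and its replicates, which the study calls biological, give the only spread between samples used here. With 1 map for each line but SW480, no test between lines or windows was run, and over lines an exact two-sided sign-flip test could not go below p = 0.25 with 3 lines and could not pass 0.05 with 4. Pairs of ends are not replicates. Intervals are exact Poisson or binomial 95% intervals and cover counting error only, since read pairs without molecular identifiers are not independent molecules.

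High-GC end bins were missing from some maps. Among the 2109 end bins with assembled sequence, 98.6% had read pairs within their chromosome in SW480 and 96.3% in OE33, but 88.4% in SNU-C1 and 80.7% in HCC1954. At 10 to 12 Mb the shares were 96.9% to 99.5% in every line. Among the 70 end bins of at least 62% GC, all had read pairs in SW480 and 98.6% in OE33, against 20% in SNU-C1 and 11.4% in HCC1954. Those 70 are most of the 93 autosomal bins of that GC content. At 54% to 58% GC, 68.8% of the 266 end bins had read pairs in HCC1954, against 87.8% of all 1293 autosomal bins, and 86.5% in SNU-C1, against 91.4%. At 50% to 54% GC the shares were 83.7% against 94.4% in HCC1954 and 93.96% against 95.2% in SNU-C1, so that end bins were missing there more often than all bins of like GC content. A bin was usable with at least 0.25 of each line's median coverage, which kept 1602 end bins and 2116 reference bins. A window needed 20 usable bins of 50, and 37 ends passed, 34 of them telomeric. The ends of 1p, 8p, 11p, 18q and 19p and the starts of 15 and 21 did not pass. Of these, 19p, 11p and 1p hold 82, 71 and 56 protein-coding genes, and the other 4 hold 0 to 12.

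**Figure D1:**
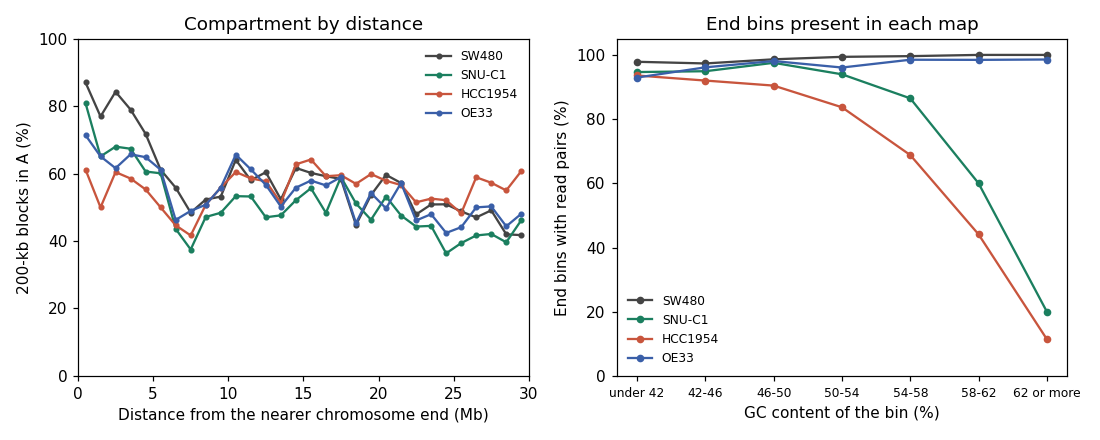
Left, share of 200-kb blocks in compartment A (%) against the distance from the nearer chromosome end in 1-Mb steps, without the starts of the acrocentric chromosomes, 1 line of points per cell line (SW480 is the pooled map). In the outermost 1 Mb the shares run from 61.2% in HCC1954 to 87.1% in SW480. Right, share of the end bins with read pairs (%) by the GC content of the bin. Bins of at least 62% GC are at 20% in SNU-C1 and 11.4% in HCC1954, and near 100% in SW480 and OE33.

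Ends of different chromosomes were in contact more often than the windows 10 to 12 Mb inside them in each of the 3 lines. Contact was measured as O/E, from the mean corrected contact frequency over the usable bin pairs of a pair of windows. That mean was divided by the mean over all usable bin pairs of different autosomes in the same map. The median O/E over the 651 end pairs was 2.46 in SNU-C1 (interquartile range 1.47 to 4.72), with 2.46 in HCC1954 (1.56 to 3.60) and 1.74 in OE33 (1.29 to 2.55). Pairs of 10 to 12 Mb windows of the same arms had medians of 1.22, 1.09 and 1.11 in that order, so that the ends were 2.01, 2.25 and 1.57 times as high. An end with a 10 to 12 Mb window of another chromosome gave 1.36, 1.30 and 1.21, close to the reference pairs and below the end pairs. Of the 651 end pairs, 553 exceeded their own reference pair in SNU-C1, with 569 in HCC1954 and 547 in OE33, and 462 did so in all 3 lines.

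An O/E of at least 2 was reached by 397 end pairs (61.0%) in SNU-C1, against 5.73% of all 803595 pairs of 2-Mb windows on different autosomes. In HCC1954 the count was 404 (62.1%), against 5.47%, and in OE33 260 (39.9%), against 2.73%. Of the reference pairs 94, 58 and 29 passed. In all 3 lines 219 end pairs (33.6%) were at 2 or above, against 1.03% of all window pairs, and in none of them 167 (25.7%), against 89.8%. Read pairs were few, with a median of 26 per end pair in SNU-C1, with 24 in HCC1954 and 66 in OE33, so the value of a single pair is uncertain while the medians rest on 24860, 23340 and 59090 read pairs.

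The size of this difference depended on how bins were made comparable. With read pairs and no correction the log2 ratio of end to reference pairs was 0.66, 0.46 and 0.68 in the order SNU-C1, HCC1954, OE33, lower than the corrected 1.01 and 1.17 in SNU-C1 and HCC1954 and close to the corrected 0.65 of OE33. With the read pairs set against the product of the sums of each bin over other chromosomes, the median O/E of end pairs was 1.36 in SNU-C1, with 1.37 in HCC1954 and 1.24 in OE33, against 0.948, 0.950 and 0.955 for the reference pairs. On that scale 220 end pairs (33.8%) reached 2 in SNU-C1, against 3.66% of all window pairs, 168 (25.8%) in HCC1954, against 4.01%, and 91 (13.98%) in OE33, against 1.21%. A ratio in which the factor of each window cancels, end with end times window with window over both end with window contacts, had a median of 0.76 on the log2 scale in SNU-C1, with 0.65 in HCC1954 and 0.43 in OE33, and was above 0 in 479, 473 and 476 of the 651 pairs.

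**Figure D2:**
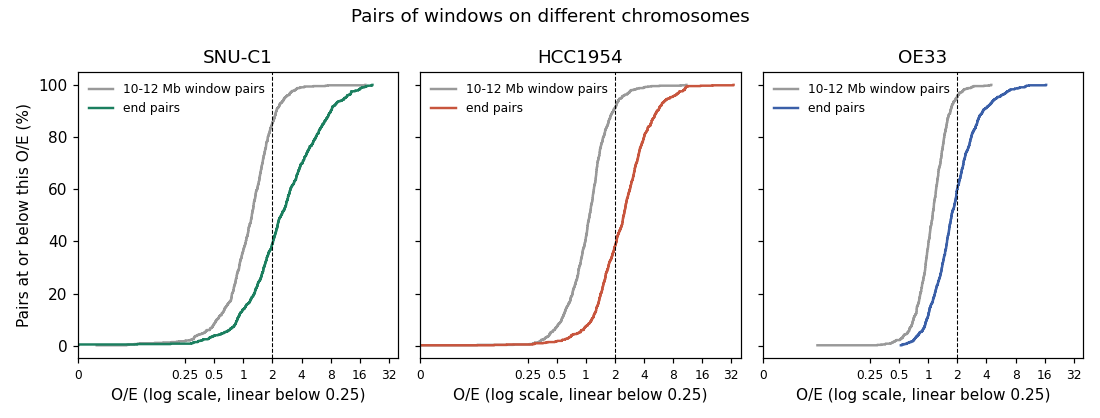
Cumulative share (%) of the 651 pairs of ends on different chromosomes at or below each O/E (log scale, linear below 0.25) in SNU-C1, HCC1954 and OE33, with the pairs of 10 to 12 Mb windows of the same arms in grey and a dashed line at an O/E of 2. The end pairs lie to the right of the grey curve in every line, with medians of 2.46, 2.46 and 1.74 against 1.22, 1.09 and 1.11.

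The excess was steepest in the outermost bins. The study's methods name no mapping-quality filter for these maps, and segments duplicated between chromosomes were not masked here. The part of misplaced reads in this excess was not tested. Averaged over bins of telomeric ends, the contact with the ends of other chromosomes had an O/E of 6.74 in SNU-C1, with 4.88 in HCC1954 and 3.29 in OE33 in the first 200 kb. At 1.6 to 2.0 Mb, just inside the limit of 2 Mb, the means were 2.39, 2.16 and 1.62. At 2.0 to 2.4 Mb, just outside it, they were 2.45, 2.04 and 1.61, so nothing changes at the limit itself. At 10 to 12 Mb they were still 1.596, 1.49 and 1.31, above the genome mean of 1. Taken as tiles of 1 Mb at the same distance from both ends, the outermost tiles had median O/E values of 3.61, 3.35 and 2.28 and the tiles at 1 to 2 Mb 1.76, 1.63 and 1.35. With the bin sums as the divisor the outermost tiles were at 1.96, 1.77 and 1.53, the tiles at 1 to 2 Mb at 1.08, 0.943 and 1.05, and the tiles at 10 to 11 Mb at 0.876, 0.901 and 0.960. On that scale the excess of the 2-Mb ends lay mostly in their outer 1 Mb.

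**Figure D3:**
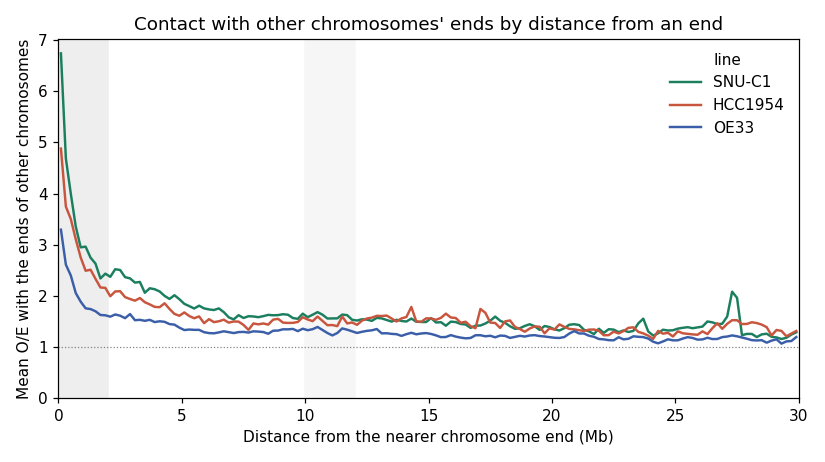
Mean O/E of bins with the ends of other chromosomes (vertical axis) against the distance from the nearer telomeric end in steps of 200 kb (horizontal axis, Mb), 1 curve per line, with the last 2 Mb and the 10 to 12 Mb reference shaded and a dotted line at the genome mean of 1. All 3 curves start at 3.29 to 6.74 and fall to 1.62 to 2.39 at 1.6 to 2.0 Mb.

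Pairs of long arms had the highest median O/E among the end pairs used. Among telomeric ends, the 210 pairs of q ends had median O/E values of 3.87 in SNU-C1, with 2.83 in HCC1954 and 2.15 in OE33. The 261 pairs of a p with a q end were at 2.68, 2.58 and 1.71, and the 78 pairs of p ends at 2.06, 2.56 and 1.49. The order was the same in the 3 lines, but p with p and p with q were nearly level in HCC1954. The reference pairs also differed by class. They were at 1.34, 1.13 and 1.15 for q with q and at 1.12, 1.003 and 1.05 for p with q. For p with p they were at 1.15, 1.18 and 1.05. The p ends of 1, 8, 11 and 19 had too few usable bins and are not in these classes. Pairs with the starts of 13, 14 or 22, which are not telomeric, were at 1.597, 1.496 and 1.55, below the other classes in SNU-C1 and HCC1954 but above the pairs of p ends in OE33. Of these 102 pairs 33, 32 and 15 reached 2.

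Each end had its own level, and the lines ranked the ends alike. Taken as the median O/E of an end with all ends of other chromosomes, 36 of the 37 ends exceeded their own 10 to 12 Mb window in all 3 lines. Across the 34 telomeric ends, which share the map of a line and partners with each other, Spearman's rho was 0.79 between SNU-C1 and HCC1954, 0.84 between SNU-C1 and OE33 and 0.80 between HCC1954 and OE33.

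The 5 highest ends by the median of the 3 lines were 14q, 4p, 21q, 8q and 12p. The end of 14q, which carries the immunoglobulin heavy chain genes, was at 5.21 in SNU-C1, with 4.03 in HCC1954 and 2.23 in OE33. The end of 4p was at 4.11, 3.88 and 2.71, and that of 21q at 4.44, 3.799 and 2.13. The end of 8q stood at 5.25, 3.54 and 2.94, the highest of the 37 ends in OE33. The end of 12p had the values 3.52, 3.64 and 2.30. The end of 20q, sixth in this order, had the highest value of any end in SNU-C1, 7.22, with 3.47 in HCC1954 and 2.71 in OE33.

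The 5 lowest ends were 3p, 4q, the start of 14, 1q and the start of 13. The end of 3p, with 2 protein-coding genes and 36.8% GC, was the only one below its reference window, at 0.884 in SNU-C1 and 0.865 in OE33, and it reached 1.18 in HCC1954. The end of 4q, with 3 protein-coding genes, had 0.869, 1.86 and 1.33. The end of 1q had 1.52, 1.70 and 1.30, and the starts of 13 and 14 lay between 1.39 and 1.83.

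**Figure D4:**
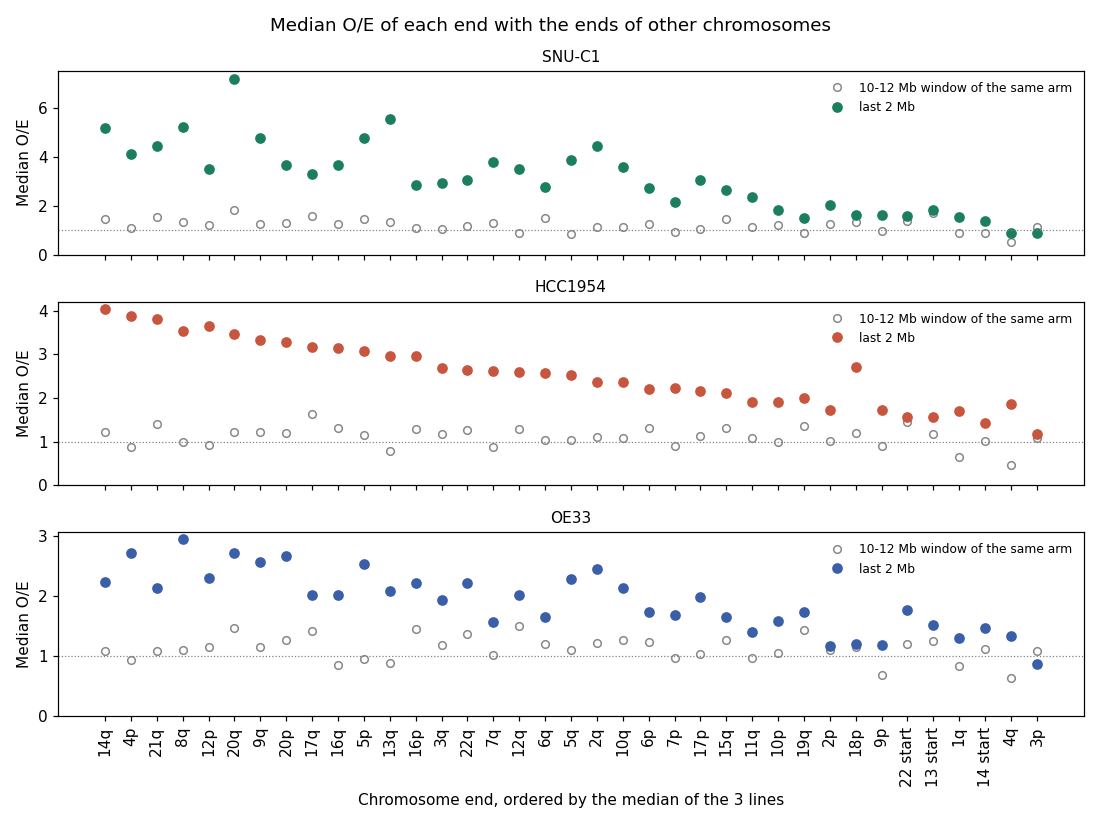
Median O/E of each of the 37 ends with the ends of other chromosomes (filled points), 1 panel per line, beside the same value of the 10 to 12 Mb window of the same arm (open points), in the order of the median of the 3 lines. Filled points lie above open points at 36 ends in all 3 lines, and 3p is the exception in SNU-C1 and OE33.

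Ends with more GC, more genes and more of compartment A had more contact with other ends. Over the 34 telomeric ends, rho of the median O/E with GC content was 0.72 in SNU-C1, with 0.59 in HCC1954 and 0.73 in OE33. With the number of protein-coding genes it was 0.45, 0.47 and 0.68, and with the share of blocks in A 0.78, 0.47 and 0.67. With the coverage of the end between chromosomes it was 0.26, 0.43 and 0.73. It was -0.46, -0.34 and -0.43 with the number of usable bins, which falls with GC in these maps, and -0.12, -0.35 and -0.19 with the length of the arm. These are descriptions over ends whose bins share GC, depth and filter, and the part of each in the contacts was not tested.

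Contacts between ends exceeded those between other A windows. A window was called A when most of its blocks were. The 268 end pairs with both ends in A had a median O/E of 4.14 in SNU-C1, against 1.504 for the 102 pairs of 10 to 12 Mb windows both in A and 1.15 for all other A with A pairs of 2-Mb windows. In HCC1954 the values were 3.18, 1.18 and 1.12, and in OE33 2.11, 1.28 and 1.24. End pairs with both ends in B were at 1.61, 2.01 and 1.45, above all other B with B pairs at 0.927, 0.757 and 0.862. Ends of either compartment thus stood above windows of the same compartment elsewhere, and A ends above B ends.

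The end pairs with the highest O/E differed between lines in part. In SNU-C1 they were 4p with 8q at 21.7 (82 read pairs, interval 65.2 to 102), 8q with 12q at 21.2 (85, 67.9 to 105.1) and 16p with 17q at 19.3 (61, 46.7 to 78.4). In HCC1954 they were 5p with 9p at 33.9 (1798, 1716 to 1883), 12p with 20q at 20.48 (157, 133 to 184) and 16p with 20q at 15.4 (37, 26.1 to 51.0). In OE33 they were 8q with 16p at 16.6 (529, 485 to 576), 8q with 9q at 11.03 (366, 330 to 406) and the start of 14 with 18p at 10.4 (316, 282 to 353). Several were high in every line. The pair 12p with 20q had 17.1 in SNU-C1 and 8.88 in OE33, and 8q with 9q had 13.03 in SNU-C1 and 10.5 in HCC1954. Others belonged to 1 line. The pair 5p with 9p had 3.04 in SNU-C1 and 1.22 in OE33, and the start of 14 with 18p had 1.06 in SNU-C1 and 0.883 in HCC1954.

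A pair was called particular to a line when its O/E reached 4 and was 4 or more times that of either remaining line, with 0.5 added to all values. In SNU-C1 this held for 4 of 651 pairs (0.614%), against 0.143% of all window pairs, namely 3q with 5q, 7p with 20q, 7q with 20q and 8q with 12q. In HCC1954 it held for 4 (0.614%), against 0.367%, namely 2q with 9p, 5p with 9p, 5q with 9p and 18p with 22q. In OE33 it held for the start of 14 with 18p alone (0.154%), against 0.053%. Counts of 1 to 4 are too few to read against these shares. In SNU-C1, 7q with 20q had an O/E of 18.7 on 258 read pairs, against 2.44 on 13 in HCC1954 and 1.501 on 67 in OE33. The windows 10 to 12 Mb inside were high there too, at 7.48 for 7q with 20q, 18.4 for 7p with 20q and 7.07 for 3q with 5q, whereas 8q with 12q fell from 21.2 at the ends to 0.902 inside. In HCC1954, 9p took part in 3 of the 4 pairs, and 5q with 9p had 10.1 on 617 read pairs, against 1.15 on 20 in SNU-C1 and 1.03 on 48 in OE33. The relative coverage of 9p in HCC1954, its read pairs per bin over the median of the other 3 lines, was 2.12, and it was 1.63 for 5p and 1.53 for 5q. At 10 to 12 Mb it was 3.38 on 9p but 0.790 on 5p and 0.937 on 5q. For pairs between chromosomes, coverage over the autosomal median of HCC1954 was 3.74 at 9p, 7.44 at 5p and 4.63 at 5q. The same values were 1.40, 1.25 and 1.07 in SNU-C1 and 0.901, 1.93 and 1.66 in OE33. The pairs 5p with 9p and 5q with 9p were at 1.27 and 0.757 inside, 2q with 9p at 4.76 and 18p with 22q at 1.71, and in OE33 the start of 14 with 18p was at 4.49 inside. Whether a rearrangement joins these ends was not tested.

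Both ends of 1 chromosome were also in contact more often than the windows inside them. Here the expected value was the mean at the same distance over all autosomes, and 15 chromosomes had usable windows at both ends. On chromosomes 13, 14 and 22 among them, the first end is a start beside the centromere and not a telomere. Few chromosomes reach the distance between the ends of the longest ones. For those the expected value comes in large part from their own outer windows. The median O/E between the ends was 1.88 in SW480, with 1.93 in replicate 1 and 2.11 in replicate 2. It was 2.06 in SNU-C1, with 2.54 in HCC1954 and 2.10 in OE33. The 10 to 12 Mb windows of the same chromosomes had medians of 0.770 in SW480 (0.822 and 0.842 in the replicates), 0.974, 0.827 and 0.957. The log2 ratio of the medians was 1.28 in SW480 (1.23 and 1.33 in the replicates), 1.08 in SNU-C1, with 1.62 in HCC1954 and 1.14 in OE33. Of the 15 chromosomes, the same 13 had the end pair above the window pair in every line, and chromosomes 2 and 3 had it below in every line.

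An O/E of at least 2 was reached between the ends of 7 of 15 chromosomes in SW480, against 4.15% of all pairs of 2-Mb windows at least 30 Mb apart on 1 chromosome. The counts were 9 in SNU-C1, against 4.84%, 10 in HCC1954, against 4.21%, and 8 in OE33, against 4.76%. The log2 ratio in which the factors of the windows cancel was 0.36, 0.77, 0.73 and 0.54, and was above 0 in 10, 11, 13 and 14 of the 15 chromosomes, 9 of them in all 4 lines. On this ratio SW480 replicates 1 and 2 were at 0.58 and 0.23, apart by nearly as much as the lines. Chromosome 2 turned direction on that ratio, at 0.36, 0.29, 0.59 and 0.35, whereas chromosome 3 was above 0 in HCC1954 alone.

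Chromosome 16 had the strongest contact between its own ends. Its O/E was 6.59 in SW480 (225 read pairs, 7.03 and 6.52 in the replicates), 14.2 in SNU-C1 (136), with 7.05 in HCC1954 (93) and 6.87 in OE33 (563), while its 10 to 12 Mb windows were between 0.627 and 1.65. Chromosome 6 was at 3.83, 4.58, 4.21 and 3.22 in the same order of lines. Chromosome 7 was at 2.95, 4.29, 3.93 and 2.10, where the 7p end starts 2.32 Mb inside the chromosome. Chromosome 17 was at 3.64, 3.46, 3.23 and 2.89, and chromosome 13, whose first end is not a telomere, at 3.10, 3.23, 4.35 and 1.63. Chromosome 16 was thus the highest in every line but HCC1954.

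In HCC1954 the highest was chromosome 5, which is named here because its value was seen. The ends of 5p and 5q had an O/E of 31.1 on 6593 read pairs, against 1.74 on 161 in SW480, 2.06 on 90 in SNU-C1 and 2.85 on 364 in OE33. Both ends are also those that contacted 9p in HCC1954.

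The 5 lowest chromosomes were 3, 9, 22, 2 and 4. Of these, 2, 3 and 4 are the longest chromosomes used, so their own outer windows weigh most in the expected value. Chromosome 3 was at 1.22 in SW480, 0.411 in SNU-C1, with 0.959 in HCC1954 and 0.571 in OE33, and its 10 to 12 Mb windows were at 1.73 to 2.39. Its p end was also the lowest in contact with the ends of other chromosomes, by the median of the 3 lines. Chromosome 9 was at 0.894, 0.760, 1.32 and 0.779, yet above its 10 to 12 Mb windows at 0.198 to 0.444. Chromosome 22, whose first end is not a telomere, was at 1.06 to 1.19 in 3 lines and 2.30 in OE33.

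**Figure D5:**
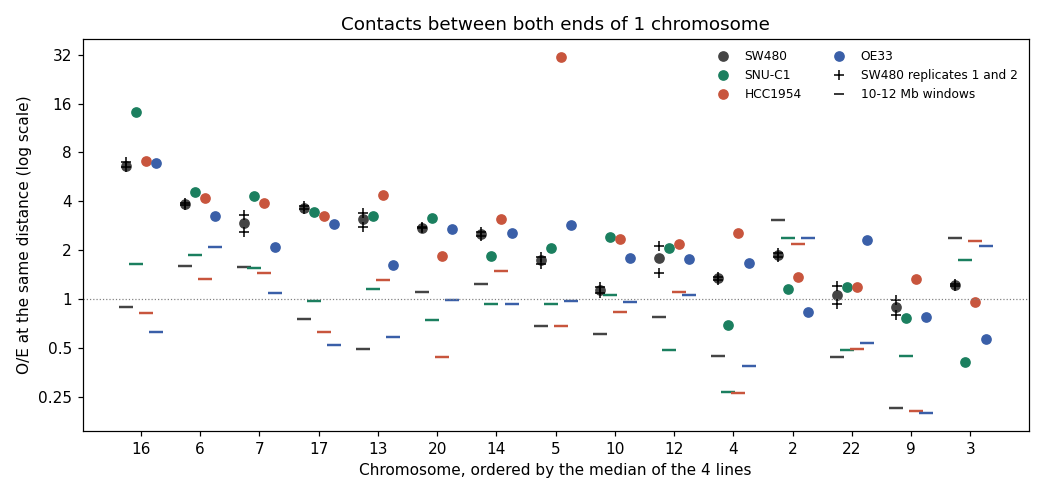
O/E between both ends of 1 chromosome (points) and between its 10 to 12 Mb windows (dashes), at the same distance, on a log scale for the 15 chromosomes with usable windows, 1 colour per line. Crosses are SW480 replicates 1 and 2, which lie close to the pooled SW480 point. Points lie above dashes of the same colour on all chromosomes but 2 and 3, and chromosome 5 of HCC1954 stands at 31.1.

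The ends were mostly in compartment A, the open and gene-rich compartment, in SW480, SNU-C1 and OE33. Compartments were scored in blocks of 200 kb by the eigenvector that follows gene density outside the ends, so the A or B side was not set by the ends. Of 324 end blocks, 261 were in A in SW480 (80.6%, interval 75.8% to 84.7%), with 80.9% and 80.2% in the replicates, against 52.9% of all blocks. The share was 71.6% in SNU-C1 (interval 66.4% to 76.5%), against 47.5%, and 67.9% in OE33 (62.5% to 73.0%), against 49.9%. HCC1954 differed, with 56.2% of the end blocks in A (50.6% to 61.6%), against 54.6%. At 10 to 12 Mb the shares were 59.9%, 51.9%, 56.6% and 59.6% in the order SW480, SNU-C1, HCC1954, OE33. The ends were 20.7, 19.7 and 8.28 percentage points above them in SW480, SNU-C1 and OE33 and fell by 0.40 below them in HCC1954. Neighbouring blocks are not independent, so these intervals are too narrow. Without the acrocentric starts, the share in A stayed high past the limit of 2 Mb. It was 77.0% at 1 to 2 Mb and 84.3% at 2 to 3 Mb in SW480, with 65.1% and 68.0% in SNU-C1. OE33 had 65.1% and 61.6%, then 65.75% at 3 to 4 Mb. The outermost 1 Mb was higher, at 87.1%, 80.95% and 71.4% in that order. A high share in A was thus not limited to the last 2 Mb in these lines.

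In all 4 lines alike, 169 of 324 end blocks were in A (52.2%, against 37.8% of all blocks) and 56 in B (17.3%, against 34.2%). HCC1954 alone was in B at 36 blocks that were in A in the other 3 lines (11.1%), against 2.01% over all blocks. For SW480 alone in B the count was 0, against 1.58% of all blocks, for SNU-C1 4 (1.23%), against 3.56%, and for OE33 6 (1.85%), against 1.46%. In the other direction, SW480 alone was in A at 19 blocks that were in B in the other 3 lines (5.86%), against 3.45% over all blocks. The counts alone in A were 1 in SNU-C1 (0.309%), against 1.77%, 2 in HCC1954 (0.617%), against 4.66%, and 3 in OE33 (0.926%), against 1.09%. Of the 36 blocks in B in HCC1954 alone, 10 lay at 20p, 7 at 21q and 5 at 5q. On chromosome 21 the scores of HCC1954 followed the mean of the other lines less than anywhere else (r = 0.46 over blocks, median 0.87 over chromosomes), and on chromosome 20 the r was 0.78. The side of chromosome 21 in HCC1954 rested on a correlation with gene density of 0.191, the lowest of the 22 chromosomes in that line, and with 400-kb blocks eigenvector 2 was chosen there in place of 1, with a correlation of 0.178. Without chromosomes 20 and 21 the difference from 10 to 12 Mb was -1.06 percentage points in HCC1954, and with an eigenvector per arm it was 5.55. HCC1954 also lacked the most GC-rich end bins. A bin had to be usable in all 4 lines, so these bins were left out of every line. The same 324 end blocks were scored in each line. The part of GC content in the scores of these blocks was not tested.

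Of the 42 scored ends, 15 were wholly in A in all 4 lines, among them 2q, 6p, 9q, 16p, 16q, 17p and 20q. In 14 ends B held most blocks in 2 or more lines. The ends of 1q, 3p and 19q and the start of 22 were in B in all 4. Some ends wholly in A had few scored blocks, such as 1p with 1, 11p with 2 and 8q and 19p with 4 each. No share over all 2-Mb windows is given beside these counts, so they are not read as a trait of the ends. The end of 1q had 0% of its 8 blocks in A in every line, and the end of 19q 0% of 10. Both are rich in genes of large families, chosen for mention after their values were seen. Of the 61 protein-coding genes in the end of 1q, 45 were named as olfactory receptors, the smell receptors of the nasal lining. Of the 78 in the end of 19q, 53 were named as zinc finger genes, a family of DNA-binding proteins. Such genes also lay in ends in A. The start of 14 held 23 olfactory receptor genes among 64 and had 60% to 70% of its blocks in A. The end of 8q held 10 zinc finger genes among 80, with 100% of its scored blocks in A in every line. The end of 3p had 20% of 10 blocks in A in SW480 and 0% in the other lines.

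The remaining ends in B differed by line. The end of 2p was at 70% in SW480 and 20% to 40% in the others. The end of 4q had 40%, 0%, 10% and 60% in the order SW480, SNU-C1, HCC1954, OE33, and that of 9p 50%, 30%, 30% and 0%. The end of 10p was at 28.6% to 57.1%. The ends of 7p, 7q, 11q, 14q and 18q were at 80% to 100% in SW480 and at 30% to 44.4% in both HCC1954 and OE33. The start of 15 had 1 scored block.

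Coverage of the ends differed between the lines. Read pairs per bin within chromosomes were divided by the sum expected from the bins present, because an end has neighbours on 1 side only. The median over the 44 ends relative to that at 10 to 12 Mb was 0.04 on the log2 scale in SW480 (0.05 and 0.06 in the replicates) and 0.09 in OE33. It was -0.25 in SNU-C1 and -0.43 in HCC1954. Taken end by end, 24 of the 44 ends lay below their own reference in SW480 (24 and 22 in the replicates), so its ends were split about evenly, with 11 in OE33, 31 in SNU-C1 and 35 in HCC1954. Without the division all 4 were lower, at -0.49, -0.27, -0.81 and -0.98. For pairs between chromosomes the log2 values were -0.06 (SNU-C1), -0.10 (HCC1954) and 0.36 (OE33), with 21, 26 and 17 ends below their own reference. SNU-C1 and HCC1954 are also the lines that lacked GC-rich end bins, as given above, and the part of GC content in these differences was not tested.

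Against the other 3 lines, OE33 had a relative coverage of at least 1.5 at 19 of 44 ends (43.2%), where 12.4% of all 2-Mb windows had one. HCC1954 had 0.67 or less at 19 ends (43.2%), where 11.8% of windows did, and SNU-C1 at 9 (20.45%), where 3.83% did. SW480 had at least 1.5 at 8 ends (18.2%), where 3.75% did. In the other direction there were 3 ends in OE33, against 7.28% of windows, 5 in HCC1954, against 10.8%, 3 in SNU-C1, against 8.58%, and 1 in SW480, against 4.52%. The highest values of OE33 were at the GC-rich ends of 10q at 4.34, 19p at 3.73 and 16p at 3.68, where the 10 to 12 Mb windows of the same arms were at 2.19, 1.57 and 1.92. The lowest of HCC1954 were 8p at 0.334, 20q at 0.337, 8q at 0.385, 11p at 0.385 and 1p at 0.394, where the 10 to 12 Mb windows were at 0.482, 0.647, 0.586, 0.647 and 0.832. In HCC1954 only 19, 37, 28, 17 and 11 of the 50 bins of these ends had read pairs, in the same order. The counts above include all 44 ends, also those with few bins.

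Some ends lay past a limit together with the window 10 to 12 Mb inside. In SNU-C1 the end of 13q had a relative coverage of 1.99 and the start of 13 had 2.29, with 2.63 and 2.16 at 10 to 12 Mb, and the start of 21 had 1.55 with 1.59 inside. The start of 21 had 1 usable bin of 50, so its values here and in OE33 below are weak. In SW480 the end of 12p had 1.69 with 1.88 inside, and that of 18p 1.52 with 1.98 inside. In HCC1954 the low ends of 8p, 8q, 11p and 20q were of this kind, as was the high end of 9p. In OE33 they were 10q, 16p and 19p, given above, with 8p at 1.61 and 1.72 inside, 8q at 2.79 and 1.71, 12q at 2.17 and 1.51 and, in the low direction, the start of 21 at 0.646 and 0.379. Elsewhere on 18p only the end was past a limit, at 1.82 with 1.24 inside in HCC1954 and at 0.488 with 0.714 inside in OE33. A change of coverage in a Hi-C map is not a measured copy number.

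Genes at the ends were looked up from a list of 32 names, of which 28 had their start inside an end and 16 of these lay in a block with a score. These 16 lie in 15 blocks, since *FANCA* and *MC1R* share one. All 16 were in A in SW480 and SNU-C1, 13 in HCC1954 and 15 in OE33, where 80.6%, 71.6%, 56.2% and 67.9% of all end blocks were. An O/E of at least 2 with the ends of other chromosomes in all 3 lines was found for 14 of the 16, against 42.5% of the 334 usable blocks that overlap an end and 3.38% of all blocks. Most of the 16 lie in the outer 1 Mb, where this contact was highest. The blocks were not matched to them for distance, so the count is not read as a trait of the genes. Both telomere biology genes were among the 14. *TERT*, the catalytic subunit of telomerase, lies 1.28 Mb from the end of 5p, and its block had an O/E of 3.50 in SNU-C1, with 5.50 in HCC1954 and 2.01 in OE33. *RTEL1*, a helicase that unwinds telomere loops, lies 0.60 Mb from the end of 20q, with 6.04, 5.08 and 3.10. The compartment scores of both blocks were above 0 in all 4 lines, at 0.36 to 1.10 for *TERT* and 1.02 to 1.15 for *RTEL1*. In HCC1954 the end of 5p, which holds *TERT*, met 9p at an O/E of 33.9 on 1798 read pairs. It met 21q at 10.8 and the start of 22 at 10.5. Its median with the ends of other chromosomes was 3.08 there, against 4.80 in SNU-C1. The study describes a complex rearrangement of this line that takes in *TERT*. How much such pairs add to the 5.50 of *TERT*, or to other genes at 5p, was not tested.

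Of the tumour genes on the list *AXIN1*, a part of the complex that degrades beta-catenin, had 4.88, 5.05 and 3.66 at 0.32 Mb from the end of 16p. *FANCA*, a DNA crosslink repair gene at 16q, had 3.87, 3.91 and 2.69, and *POLE*, the catalytic subunit of a replicative polymerase at 12q, 4.21, 2.83 and 2.64. *STK11*, *HRAS*, *NOTCH1* and *FGFR3* lay in blocks of 58.2% to 61.0% GC with too few usable bins, and *PDGFA* lay outside the end by the rule. The mucin genes *MUC2*, *MUC5AC* and *MUC6* at 11p had no usable bin in their block either.

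Among metabolic and structural genes, *SDHA*, a subunit of succinate dehydrogenase at 5p, had 5.76, 4.22 and 3.23, *FASN*, the fatty acid synthase at 17q, 3.54, 2.68 and 2.59, and *ACTG1*, a cytoplasmic actin at 17q, 3.18, 2.14 and 2.12. Of the developmental and neural genes, *SOX18*, a transcription factor of vessel formation 0.2 Mb from the end of 20q, had the highest values of the list, 9.21, 6.11 and 4.55. *SHANK3*, a scaffold of synapses at 22q, had 7.12, 3.61 and 3.52, and *IRF4*, a lymphoid transcription factor at 6p, 5.01, 3.58 and 2.63. *FOXC1*, a transcription factor 1.40 Mb from the end of 6p, had the lowest, 2.01, 1.87 and 1.27. At 21q, *PCNT*, a centrosome protein, had 6.90, 5.55 and 2.96 and *COL6A1*, a collagen chain, 6.51, 5.68 and 2.81. Both lay in B in HCC1954, with scores of -0.66 and -1.41, and in A in SW480 and SNU-C1. With 400-kb blocks both scores turned positive in HCC1954, at 1.42 and 1.44, and with an eigenvector per arm they were -0.20 and -0.39, so their side in this line is not settled. In OE33 the score of *COL6A1* was -0.08, with 0.04 per arm, and in SNU-C1 it turned from 0.53 to -0.34 per arm. *SHANK3* was at -0.15 in HCC1954. *FAM110C*, of a multi-copy family, lies 0.04 Mb from the end of 2p and had 4.37, 2.67 and 1.95. *TUBB8*, another of these, had no usable bin in its block.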

How the data were processed

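In situ Hi-C maps of 4 cancer cell lines were used. Per the labels and the study's methods, chromatin was cut with MboI, BWA-MEM placed the reads on hg19 and Picard removed duplicates (versions of both not given in the sources used here). In the deposited maps the authors give a signal for each pair of 40-kb bins, its read pairs after iterative correction. Bin factors were fitted in 45 iterations to pairs at least 5 Mb apart or between chromosomes, and for SW480 to pairs within chromosomes alone, so its read pairs between chromosomes were not checked. Values times both bins' factors, where at most 20.5, were whole within 0.02 in 99.98% to 100% of cases, which gave the read pairs and the depth. Expected values within chromosomes were smoothed over 10% of the distance beyond 5 Mb. Compartment blocks needed 3 of 5 usable bins, and the eigenvector was chosen among the first 3. Gene starts and sequences came from GRCh37 and GENCODE release 44 lifted to it, whose lengths equalled those of the bins for 23 of 23 chromosomes. No column of another series was present. Some sequences of the ends are not reported here. The ends, windows, gene lists and rules for naming ends (the 5 highest and 5 lowest, the 3 highest pairs per line, the chromosomes, the coverage limits and the ends in B) were chosen with earlier results of these data known. In read pairs simulated for SNU-C1, HCC1954 and OE33 with 200 end pairs at an O/E of 3, 97.0%, 92.5% and 100% of those reached 2, as did 4, 6 and 0 of the other 451. All other pairs were drawn at the genome mean, without compartments or a fall with distance. These counts show counting error alone and are not a rate of false calls in the maps. The tools were pysam 0.24.0, Matplotlib 3.10.9, PyArrow 21.0.0, pandas 2.3.3, SciPy 1.17.1, NumPy 2.4.6 and Python 3.11.15.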

Additional observations from a re-analysis of the deposited data

Results flagged for a closer look

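The share of end blocks in A lay 0.40 percentage points below that at 10 to 12 Mb in HCC1954 (-0.40), whereas it lay above it in the pooled map and in both replicates of SW480. With 400-kb blocks it turned to 1.96 above and with an eigenvector per arm to 5.55 above in HCC1954, so its sign depends on the setting. The difference between the lines was not tested. The log2 coverage of the ends relative to 10 to 12 Mb within chromosomes was -0.25 in SNU-C1 and -0.43 in HCC1954, whereas it was just above 0 in all 3 maps of SW480, where 22 to 24 of the 44 ends still lay below their own reference. In SW480 it turned to -0.49 without the division by the expected sum and to -0.0536 with the reference at 20 to 22 Mb, so the contrast in sign was lost there. This difference was not tested either. SW480 was left out of the contacts between chromosomes because its maps hold few such pairs. The sources used here do not say whether a filter or a correction within each chromosome left them out. The mean O/E was 2.17 over the 651 end pairs and 1.17 over the reference pairs, a log2 ratio of 0.89, but it rests on 308 and 321 read pairs, less than 1 per pair of windows. The factors behind it were fitted within chromosomes and not checked between them, so nothing is read from this value.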

How the results depend on the processing

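No paired analysis was possible because only SW480 has numbered replicates. The median over lines of the log2 ratio of end pairs to reference pairs between chromosomes was 1.01. It was 0.66 without iterative correction, 0.52 over the product of bin sums, 1.04 with the mean of each pair of chromosomes, 1.32 as a mean over end pairs, 1.23 without the starts of chromosomes 13, 14, 15, 21 and 22, 1.65 for the last 1 Mb, 1.28 with the reference at 20 to 22 Mb and 1.12 with all bins with any pair. Chosen after seeing the data, the ratio in which window factors cancel gave 0.65, A ends against A windows 1.53, and OE33 with its own usable bins (42 ends) 0.60 against 0.65. Between both ends of 1 chromosome the median over lines was 1.21, and 0.76 without correction, 0.60 with the mean of each chromosome (which at such distances comes largely from the ends themselves and is no independent check), 0.64 with window factors cancelled, 1.31 as a mean over chromosomes, 1.14 without chromosomes 13, 14, 15, 21 and 22 and 1.001 with the reference at 20 to 22 Mb, and leaving out 1 SW480 replicate gave 1.18 to 1.23. Per line, 0 of 61 alternatives reversed either ratio. The difference in A share was 14 percentage points as a median over lines, and 16.1 with 400-kb blocks, 15.04 with an eigenvector per arm, 12.2 without the acrocentric starts, 17.7 with the reference at 20 to 22 Mb, 9.63 without chromosomes 20 and 21 and 14 to 14 without 1 SW480 replicate. In HCC1954 it turned positive with 400-kb blocks (1.96) and per arm (5.55). The log2 coverage of ends within chromosomes was -0.11 as a median over lines, and -0.65 without division by the expected sum, -0.0522 without the acrocentric starts, -0.12 with the reference at 20 to 22 Mb and -0.104 to -0.0974 without 1 SW480 replicate. It reversed in SW480 to -0.49 without the division and to -0.0536 with that reference, in OE33 to -0.27 without the division, and, between chromosomes, in SNU-C1 to 0.0408 with that reference. Apart from the divisors named, the cause was not tested. The share of end pairs at an O/E of 2 over these settings ran from 33.8% to 70.9% in SNU-C1, from 25.8% to 75.7% in HCC1954 and from 13.98% to 59.1% in OE33. The lowest shares were over the product of bin sums, against 3.66%, 4.01% and 1.21% of all window pairs. The highest were for the last 1 Mb. No share over all 1-Mb window pairs is given here, and the shares of 2-Mb windows do not apply to them. With 1 map per line used here, medians of 24 to 66 read pairs per end pair (single pairs from 0 to 1798) and missing GC-rich bins, single end pairs are less certain than medians.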

Other observations

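Bins usable in OE33 alone gave values for 5 ends that the comparison of 3 lines leaves out. The gene-rich end of 11p, with the mucin genes, had a median O/E with other ends of 2.15, against 1.22 for its 10 to 12 Mb window, that of 19p 1.91, against 1.39, and that of 1p 1.605, against 1.03. The end of 18q had 1.28, against 0.671, and that of 8p 1.16, against 1.15. Over the 841 end pairs of 42 ends, 313 reached an O/E of 2 (37.2%), against 2.68% of all window pairs and 36 of the reference pairs, and 678 exceeded their reference pair, and the end of 3p at 0.774 and that of 18p at 1.10 lay below their reference windows at 1.11 and 1.16.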
